A study of Mus musculus with 18 samples.

Results

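Foxa2 sites present in both genotypes were the sites of the wild-type Foxa2 list that overlapped a site of the Zmpste24 mutant list by at least 1 bp. They were chosen by the calls of both lists, on chromosomes 1 to 19. There were 1339 such sites among 4912 wild-type sites (27.3%), and they overlapped 1353 of the 8051 mutant sites (16.8%). The remaining 3573 wild-type sites are called wild-type only below, and the 6698 mutant sites without an overlap are called mutant only. Both overlap shares follow from the rule itself and are given as a description.

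Foxa2 was immunoprecipitated from livers of male C57BL/6 mice aged 12 weeks, with 3 replicates of Zmpste24 KO mice and 3 of wild-type littermates (ChIP-Seq). Zmpste24 encodes the enzyme whose cleavage of the farnesylated precursor yields lamin A, and null mice have an abnormal nuclear lamina throughout the body and age prematurely, so the liver was not altered alone. Lamin B1 and H3K9me3 lists came from other animals, wild-type C57BL/6 males aged 3 and 21 months (2 replicates per antibody and age). No lamin B1 or H3K9me3 list of Zmpste24 mutants was used here, and the position lists cannot show loss of Zmpste24 itself. Replicates were merged before calling, so a site is present or absent and has no spread between replicates. Whole liver was used, and a site bound in few cells and one bound weakly in many cannot be told apart.

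Foxa2 is a winged-helix protein of the forkhead family and an established pioneer factor, able to bind its sequence on nucleosomal DNA and to open chromatin for other factors. In hepatocytes it acts with HNF4α, HNF6 and C/EBP proteins at genes of secreted proteins, bile acids and metabolism. Lamin B1 marks domains that lie at the nuclear lamina, and trimethylation of lysine 9 of histone H3 (H3K9me3) is a mark of heterochromatin.

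The stretches below come from shared sites next to liver genes, and each shows the core TGTTTAC nearest to the middle of the overlap or, where the overlap had no core, the nearest variant. Each is 61 bases long, read 5′ to 3′ on the strand that carries the word (GRCm38.p6), with every forkhead word in capitals. Foxa2, Cebpa and Cyp7a1 carried the core, and Alb and Hnf4a carried a variant of it.
Foxa2, chr2:148040459-148040519, plus strand: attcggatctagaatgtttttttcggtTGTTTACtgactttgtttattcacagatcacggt
Cebpa, chr7:35127979-35128039, minus strand: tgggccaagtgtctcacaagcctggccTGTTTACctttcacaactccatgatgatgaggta
Cebpa, chr7:35143983-35144043, plus strand: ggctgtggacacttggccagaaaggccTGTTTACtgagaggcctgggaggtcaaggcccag
Cyp7a1, chr4:6239201-6239261, minus strand: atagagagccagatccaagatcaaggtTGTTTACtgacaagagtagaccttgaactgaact
Alb, chr5:90447739-90447799, plus strand: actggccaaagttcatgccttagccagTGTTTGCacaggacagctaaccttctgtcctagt
Hnf4a, chr2:163540706-163540766, minus strand: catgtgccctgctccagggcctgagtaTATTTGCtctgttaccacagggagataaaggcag

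The core of the Cyp7a1 site at 36.4 kb lay 26 bp from the middle of the overlap and the Alb word lay 9 bp from it. The words of the other sites shown lay between 79 and 140 bp from the middle. No forkhead word was in the overlapped stretch at the promoter of Pck1, nor in the promoter site of Foxa2.

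A forkhead core was present in 450 of the 1339 shared sites (33.6%, 95% Wilson interval 31.1 to 36.2), counted as TGTTTAC on either strand in the 300 bp around the middle of the overlap. In windows of the same length 5 kb to the right of the same sites, 62 of 1339 held the core (4.63%), and 5 kb to the left 37 of 1339 (2.76%). For a comparison with the other sites the window was centred on each called site itself, because wild-type-only sites have no overlap. The core was then in 26.1% of shared sites, in 9.49% of wild-type-only sites and in 7.69% of mutant-only sites, against 14.0% of all 4912 wild-type sites. The difference between shared and wild-type-only sites was 16.6 percentage points (95% Newcombe interval 14.1 to 19.2). Against mutant-only sites it was 18.4 points (16.0 to 20.9). Intervals of this kind cover counting error only, since sites of a merged list are not replicates.

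Variants of the core were counted in the same way. The variant TATTTAC was in 18.1% of shared sites. A further one, TGTTTGC, was in 14.9%. The last, TATTTGC, was in 7.32%. With the core and these variants together, 60.0% of shared sites held a forkhead word, against 17.8% of windows 5 kb to the right. With the window on the called site TATTTGC was in 6.27% of shared and 5.30% of mutant-only sites, and the interval of the difference included 0 (-0.332 to 2.49). In the window at the middle of the overlap, 194 shared sites (14.5%) had 2 forkhead words and 35 (2.61%) had 3. With the window on the called site, 3.13% of wild-type-only sites had 2, and the 2 windows are placed differently.

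Cores of shared sites were gathered at the middle of the overlap. Within 50 bp of it there were 310 cores, or 2.32 per kb, and from 500 to 1000 bp away there were 0.170 per kb. Within 100 bp the density was 9.45 times that of the outer part. The same ratio was 2.65 in wild-type-only and 1.75 in mutant-only sites. Those are centred on 1 call instead of an overlap of 2, so the ratios are given side by side and not compared.

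**Figure D1:**
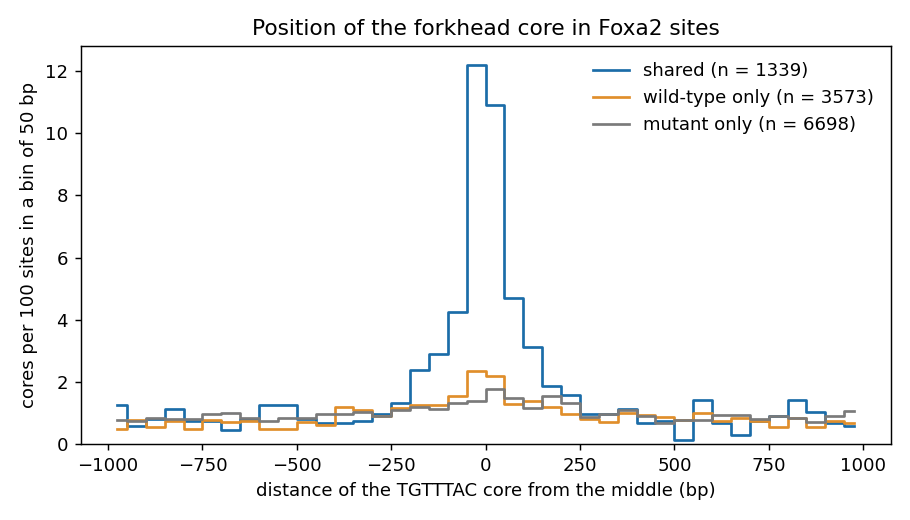
Cores (TGTTTAC, either strand) per 100 sites in bins of 50 bp, by distance in bp from the middle of the overlap (shared sites) or of the site (wild-type-only and mutant-only sites). Shared sites reach 12.2 and 10.9 cores per 100 sites in the bins on both sides of the middle (TGTTTAC within 100 bp, 1.61 per kb; from 500 to 1000 bp, 0.170 per kb).

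Letters beside the core differed near the middle as well. In the 431 cores within 100 bp, the third base after the core was A or T in 80.5%, and in 59.6% of the 228 cores found 500 to 1000 bp away. The second base before the core was C in 45.0% and 26.8%, respectively. Both features together were seen in 36.0% of the central cores (31.6 to 40.6) and in 11.8% of the outer ones (8.27 to 16.7). In the 263 cores near the middle of wild-type-only sites the share was 23.2% (18.5 to 28.7). These letters were looked up after the cores had been found and are given as a description.

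Words of other liver factors were also counted, all on both strands. TTGCNNAA, a core of C/EBP proteins, was in 21.2% of shared sites and in 11.5% of windows 5 kb to the right. The half-site of nuclear factor 1, TTGGCA, was in 24.6% and 15.5%. A direct repeat of AGGTCA with a spacer of 1 base (DR-1, up to 2 mismatches), which HNF4 and PPAR-RXR dimers can bind, was in 9.48% and 4.11%. CAAAGTCCA, a word of HNF4, was in 2.61% and 0.373%. All 4 words were more frequent in shared than in wild-type-only sites with the window on the site itself. The differences were 4.29 points for C/EBP (2.01 to 6.70), 5.93 for nuclear factor 1 (3.44 to 8.52), 2.71 for DR-1 (1.17 to 4.42) and 0.943 for HNF4 (0.239 to 1.86).

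Not every word followed that order. AGATAA, the GATA core, was in 16.7% of shared and 17.5% of wild-type-only sites, and the interval of the difference included 0 (-3.11 to 1.60). Mutant-only sites held it in 20.3%, and the difference, shared minus mutant only, was -3.62 points (-5.76 to -1.32). The Sox words CCATTGT and CCTTTGT were in 11.4% of shared, 10.4% of wild-type-only and 10.5% of mutant-only sites. GGGCGG, the GC box of Sp1 and Klf factors, was in 10.9% of shared, 10.2% of wild-type-only and 4.27% of mutant-only sites. The word of HNF6, ATCAATA, was in 5.60% of shared and 4.39% of wild-type-only sites, and the interval of the difference included 0 (-0.117 to 2.71). For TGANTCA of AP-1 (-1.90 to 1.78) and the E-box CACGTG (-0.464 to 2.44) the interval also included 0. CCGGAAG, an ETS word, did follow the order, with 3.81% of shared and 2.02% of wild-type-only sites, a difference of 1.79 points (0.757 to 3.03). AGGGGGCGC, a part of the CTCF sequence, was in 4 shared sites (0.299%) and 5 wild-type-only sites (0.140%). The interval of the difference included 0 (-0.103 to 0.632). With the window at the middle of the overlap, it was in 2 shared sites (0.149%) and in the same share of windows 5 kb to the right.

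Shared sites were narrow. Their median width was 681 bp (quartiles 468 and 1006 bp, range 180 to 33618 bp), whereas wild-type-only sites had a median of 1024 bp and mutant-only sites one of 931 bp. The mutant sites they overlapped had a median width of 622 bp. Width enters the overlap rule, so these values are a description. The overlapped stretch had a median of 431 bp, and 1321 shared sites overlapped a single mutant site. The middles of the calls lay a median of 137 bp apart, and in 906 sites at least 50% of the wider call was overlapped. The lists give no summit.

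The sites nearest to the 1 bp threshold were few. The smallest overlaps were 12 bp, at a site nearest to Foxn3 (a forkhead repressor), and 16 bp, at a site nearest to Sh3tc2, and in all 4 stretches were under 100 bp. On the other side, a wild-type-only site near Mat1a ended 5 bp from a mutant site and one near Cdh19 ended 45 bp from one. In all, 5 wild-type-only sites lay within 100 bp of a mutant site and 31 within 500 bp.

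Rows of the Foxa2 lists are not sorted by position, and what orders them is not given in the sources used here. Shared sites were concentrated in the first rows. All of the first 100 wild-type rows on chromosomes 1 to 19 were shared, and 8 of the last 100. With the wild-type rows cut into 10 equal blocks, 84.6% were shared in the first block, 56.1% in the second and 7.33% in the last. The mutant list went from 76.9% in its first block to 3.85% in its last. The forkhead core was more frequent in shared than in wild-type-only sites in all 10 blocks of the wild-type list. The shares were 28.8% against 13.2% in the first block and 30.6% against 7.69% in the last. Shared sites had their lowest share in block 9, with 15.2% against 7.64%. The last 5 blocks held 36 to 73 shared sites each, so their shares are less precise.

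**Figure D2:**
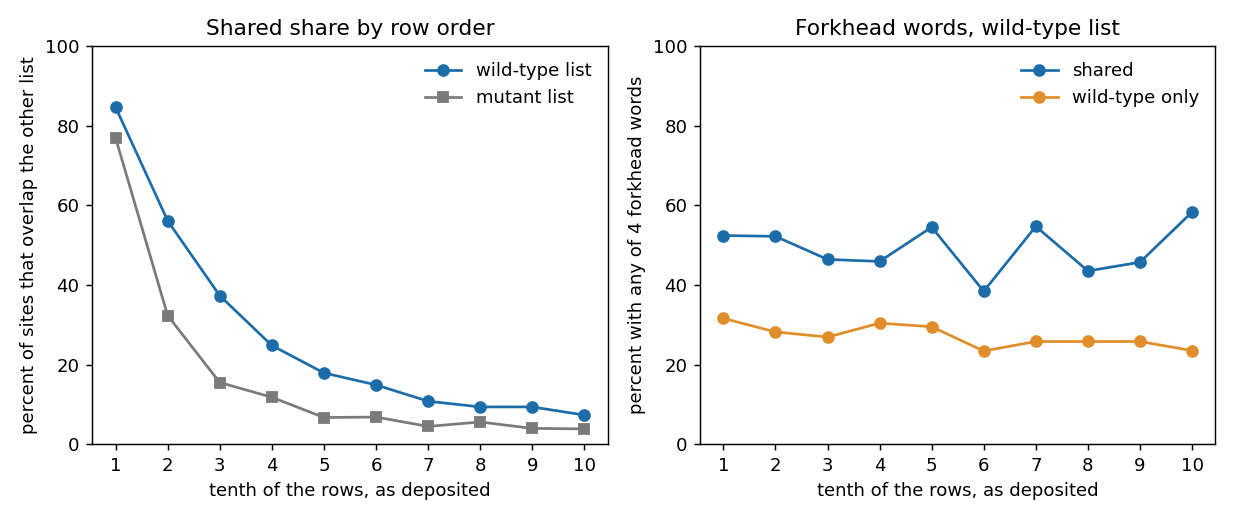
Left, percent of sites that overlap the other genotype's list, by block of 10% of the rows as deposited, for the wild-type and mutant lists. Right, percent of wild-type-list sites with any of 4 forkhead words in 300 bp at the middle of the site, for shared and wild-type-only sites. Shared sites are higher in each of the 10 blocks, from 38.4% against 23.4% in block 6, their lowest, to 58.3% against 23.5% in block 10, their highest.

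The median distance from the middle to the nearest protein-coding start site was 21.3 kb, against 28.1 kb for wild-type-only and 53.6 kb for mutant-only sites. Within 5 kb lay 345 shared sites (25.8%, interval 23.5 to 28.2), compared with 22.7% of all wild-type sites. The difference from wild-type-only sites (21.5%) was 4.27 points (1.62 to 7.02) and from mutant-only sites (11.7%) 14.0 points (11.6 to 16.5). The difference from wild-type-only sites varied with the rows of the list. Above the median row the shares were 25.4% and 25.5% (interval of the difference -3.47 to 3.47), and below it 27.2% and 19% (8.14 points, 2.76 to 14.1). In each of the first 3 blocks of 10% of the rows shared sites had the lower share (25.7% against 30.3% in the first). Over all rows, 1 to 5 kb from a start lay 13.4% of shared and 9.80% of wild-type-only sites (difference 3.57 points, 1.58 to 5.71). Within 1 kb the shares were 12.4% and 11.7%, with an interval of the difference that included 0 (-1.29 to 2.83). At over 500 kb lay 11 shared sites (0.822%) and 4.81% of wild-type-only sites.

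**Figure D3:**
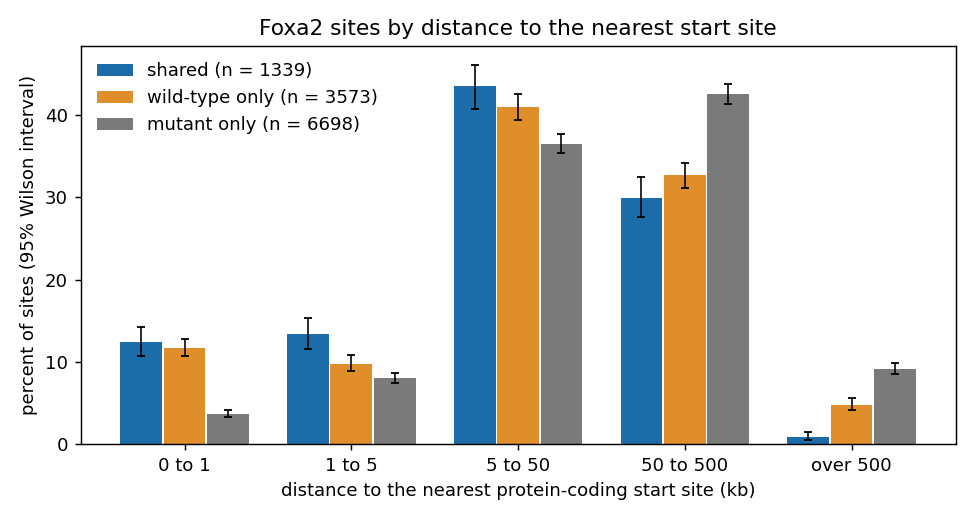
Percent of Foxa2 sites in 5 classes of distance to the nearest protein-coding start site (kb), for shared, wild-type-only and mutant-only sites, with 95% Wilson intervals as error bars. Within 1 kb shared and wild-type-only sites are alike in height (12.4% and 11.7%), and mutant-only sites are at 3.73%.

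By annotation, 598 shared sites (44.7%) had their middle in an intron and 523 (39.1%) between genes. Promoters, taken as 1 kb on either side of a start site, held 166, UTRs 34 and coding exons 18. Upstream of the nearest start lay 43.2% of shared sites and 43.2% of wild-type-only sites. More than 50% of the sequence was repeat-masked in 64 shared sites (4.78%), against 7.11% of wild-type-only and 8.76% of mutant-only sites. Shared sites were spread over all 19 chromosomes, with 22.5% of the wild-type sites shared on chromosome 3 and 37.8% on chromosome 14, where 45 of 119 were shared.

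Lamin B1 covered most shared sites in old liver. The middle of 942 shared sites (70.4%, interval 67.8 to 72.7) lay in a lamin B1 domain of wild-type livers at 21 months, compared with 64.1% of all wild-type sites. At 3 months the number was 512 (38.2%, 35.7 to 40.9), compared with 35.7% of all wild-type sites. The old list also covers more of the genome, with 38.8% of 10 kb windows of chromosomes 1 to 19 against 19.5% in young liver. Relative to these windows, shared sites were covered 1.81 times as often at 21 months and 1.97 times at 3 months. By age, 445 shared sites (33.2%) lay in lamin B1 at both ages, 497 (37.1%) at 21 months alone, 67 (5.0%) at 3 months alone and 330 (24.6%) at neither. Among all wild-type sites these shares were 30.1%, 34.0%, 5.66% and 30.3%. At Foxa2 sites of old livers inside young lamin B1 domains, the paper reports lower lamin B1 coverage in old than in young livers. That is a measure of signal, which the lists used here do not hold. The pooled lamin B1 reads were fewer at 21 than at 3 months, and an effect of this on the lists was not tested.

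The old lamin B1 share was 8.61 points higher in shared than in wild-type-only sites (61.7%; interval of the difference 5.65 to 11.5) and 24.6 points higher than in mutant-only sites (45.7%; 21.8 to 27.3). For the young list the differences were 3.42 (0.409 to 6.47) and 11.7 points (8.96 to 14.6). By distance, the interval of the difference from wild-type-only sites was above 0 only at over 50 kb. There, 56.8% of 412 shared and 41.8% of 1340 wild-type-only sites lay in old lamin B1, a difference of 15 points (9.5 to 20.4). Within 5 kb the shares were 79.1% and 76.4%, and the interval of the difference included 0 (-2.72 to 7.74), as it did from 5 to 50 kb (-1.85 to 6.55). Above the median row of the wild-type list the old lamin B1 difference was 5.39 points (1.67 to 9.07), and below it 9.71 (3.45 to 15.4). In the first 10% of the rows the order was the other way, with 71.9% of 416 shared and 77.6% of the other sites. For the young list, the interval included 0 above the median row (-3.33 to 4.40) and below it (-1.87 to 10.6). Among sites with a forkhead word the young difference was -0.603 points (-5.12 to 3.93), and without one it was 6.78 (2.30 to 11.4). The young difference was -2.85 points within 5 kb (-9.15 to 3.49) and -1.26 from 5 to 50 kb (-5.93 to 3.49). At over 50 kb it was 8.88 points (4.29 to 13.8).

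The H3K9me3 lists used here hold 2784 regions at 3 months and 2496 at 21 months. They are shorter than the lists the study describes, so a site outside them is only outside the regions used here. At 3 months 223 (16.7%, 14.8 to 18.7) lay in an H3K9me3 region, compared with 19.5% of all wild-type sites, and at 21 months 235 (17.6%, 15.6 to 19.7), compared with 23.1%. These shares were 0.693 and 0.682 times those of the genome windows (24.0% and 25.7%). In young liver the difference from wild-type-only sites (20.6%) was -3.92 points (-6.25 to -1.46). In old liver (25.2%) it was -7.61 points (-10 to -5.06). H3K9me3 was present at both ages in 123 shared sites (9.19%), at 3 months alone in 100 (7.47%), at 21 months alone in 112 (8.36%) and at neither age in 1004 (75%). Among all wild-type sites these shares were 10.2%, 9.34%, 12.9% and 67.6%. The paper also reports lower H3K9me3 coverage in old than in young livers around Foxa2 sites of old livers. Pooled H3K9me3 reads were more numerous at 21 than at 3 months, and an effect of this on the lists was not tested. The interval of the old difference was below 0 above the median row (-8.45 to -2.04) and below it (-15.3 to -5.68). It included 0 within 5 kb of a start site (-8.02 to 1.47) and among sites with a forkhead word (-6.49 to 0.657). The young difference was 2.32 points within 5 kb (-1.75 to 6.88), and its interval included 0 also from 5 to 50 kb (-5.85 to 1.08), without a forkhead word (-4.41 to 3.14) and above the median row (-5.55 to 0.575).

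**Figure D4:**
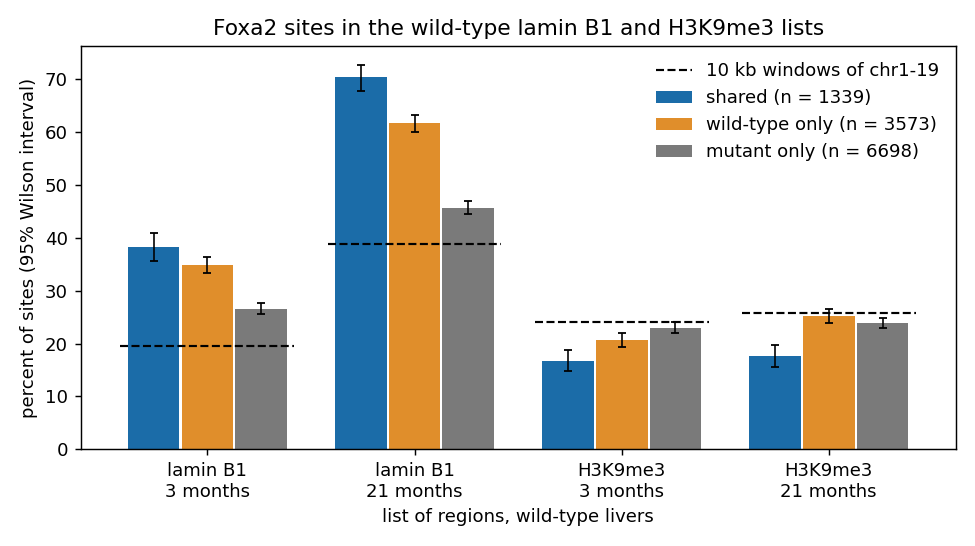
Percent of Foxa2 sites whose middle lies in a lamin B1 or H3K9me3 region of wild-type livers at 3 and 21 months, for shared, wild-type-only and mutant-only sites, with 95% Wilson intervals; dashed lines give the percent of 10 kb windows of the genome. Shared sites are the highest of the 3 sets for lamin B1 (38.2% and 70.4%) and the lowest for H3K9me3 (16.7% and 17.6%).

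The 4 lists together gave 16 combinations among shared sites. Lamin B1 at 21 months alone was the most frequent, with 385 sites (28.8%, against 22.0% of all wild-type sites and 11.4% of genome windows). Lamin B1 at both ages without H3K9me3 held 297 (22.2%, against 19.8% of all wild-type sites and 8.17% of windows). In none of the 4 lists lay 269 (20.1%, against 21.8% of all wild-type sites and 37.4% of windows). For this last class the interval of the difference from wild-type-only sites included 0 (-4.79 to 0.300). All 4 lists covered 72 sites (5.38%, against 4.03% of all wild-type sites and 1.95% of windows). Read the other way, 35.6% of wild-type sites in old lamin B1 alone were shared (32.8 to 38.5), and 36.4% of those in all 4 lists (30.0 to 43.3). Without the stretches of 5 groups of neighbouring sites, the latter share was 29.0% (51 of 176, 22.8 to 36.1). Of wild-type sites in H3K9me3 at 3 months alone, 15.2% were shared (11.2 to 20.3). The overlap rate over all wild-type sites was 27.3%.

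Examples nearest to genes of the gene lists used below, which include markers of other cell types, were spread over these combinations. The promoter site of Plg (plasminogen), with its middle 0.0130 kb from the start site, lay in old lamin B1 alone. That of Apoa2, an apolipoprotein of high-density lipoprotein, lay in lamin B1 at both ages. The Klkb1 promoter site (plasma prekallikrein) lay in none of the 4 lists, and a site 7.49 kb from Cdx2, an intestinal factor, lay in all 4. The promoter site of Ugt2b1, a glucuronosyltransferase, lay in young H3K9me3 alone, and that of Tbx3 in lamin B1 at both ages and old H3K9me3. Hpx (hemopexin) had a promoter site in old lamin B1 and in H3K9me3 at both ages. A site in an intron of Esr1, the estrogen receptor, lay in all lists but old H3K9me3. The Nfil3 site (old lamin B1 with old H3K9me3), a site upstream of Cyp2d9 (old lamin B1 with young H3K9me3), a site 2.77 kb from Cyp2c37 (H3K9me3 at both ages) and the Foxa1 site (young lamin B1 alone) stood for the other combinations of at least 10 sites that held a listed gene.

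The forkhead core was in 35.5% of the 445 shared sites in lamin B1 at both ages (31.2 to 40.1), in 35.0% of those in old lamin B1 alone (30.9 to 39.3) and in 28.8% of those in neither (24.2 to 33.9). The difference between both ages and neither was 6.72 points (0.0384 to 13.2), while for any forkhead word the interval included 0 (-8.42 to 5.51). Sites in H3K9me3 at either age held it in 31.6% (26.9 to 36.8), and the others in 34.3% (31.4 to 37.3), with an interval of the difference that included 0 (-8.23 to 3.29). Any forkhead word was in 53.7% and 62.2%, a difference of -8.42 points (-14.5 to -2.34). Sites in lamin B1 at both ages lay nearer to genes, with a median of 12.9 kb to the start site, than those in neither, with 38.6 kb. Median GC content of the 300 bp was 48.0% in the former and 43.3% in the latter.

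Shared sites were nearest to 1145 of 20780 protein-coding genes (5.51%). A single shared site was next to 992 of them, 2 sites next to 121 and 3 or more next to 32. Wild-type-only sites were nearest to 13.6% of all genes and mutant-only sites to 20.8%, so a list is read against its own background. No other Foxa2 site of either list had 477 of the 1145 genes as its nearest gene.

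In the 11 hepatocyte lists together, 109 of 415 genes (26.3%, interval 22.3 to 30.7) were nearest to one, 4.77 times the share of all genes. The same ratio was 2.19 for wild-type-only sites (123 genes) and 1.90 for mutant-only sites (164 genes). Counted over sites, 140 shared sites (10.5%) had a gene of these lists as the nearest one, against 4.98% of wild-type-only sites, a difference of 5.47 points (3.77 to 7.35). Mutant-only sites had 4.08%, and the lists hold 2.00% of all genes. In the 7 lists of markers of other cell types, 6 of 81 genes (7.41%, 3.44 to 15.2) were nearest to a shared site, 1.34 times the share of all genes. That ratio was 0.729 for wild-type-only and 1.42 for mutant-only sites. All 12 Kupffer cell, 12 neuronal and 13 muscle markers lacked one, as did the 27 genes of the nuclear lamina and heterochromatin. Upper limits of these intervals were 24.2%, 24.2%, 22.8% and 12.5%, above the 5.51% of all genes, so lists this short cannot show a lack.

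**Figure D5:**
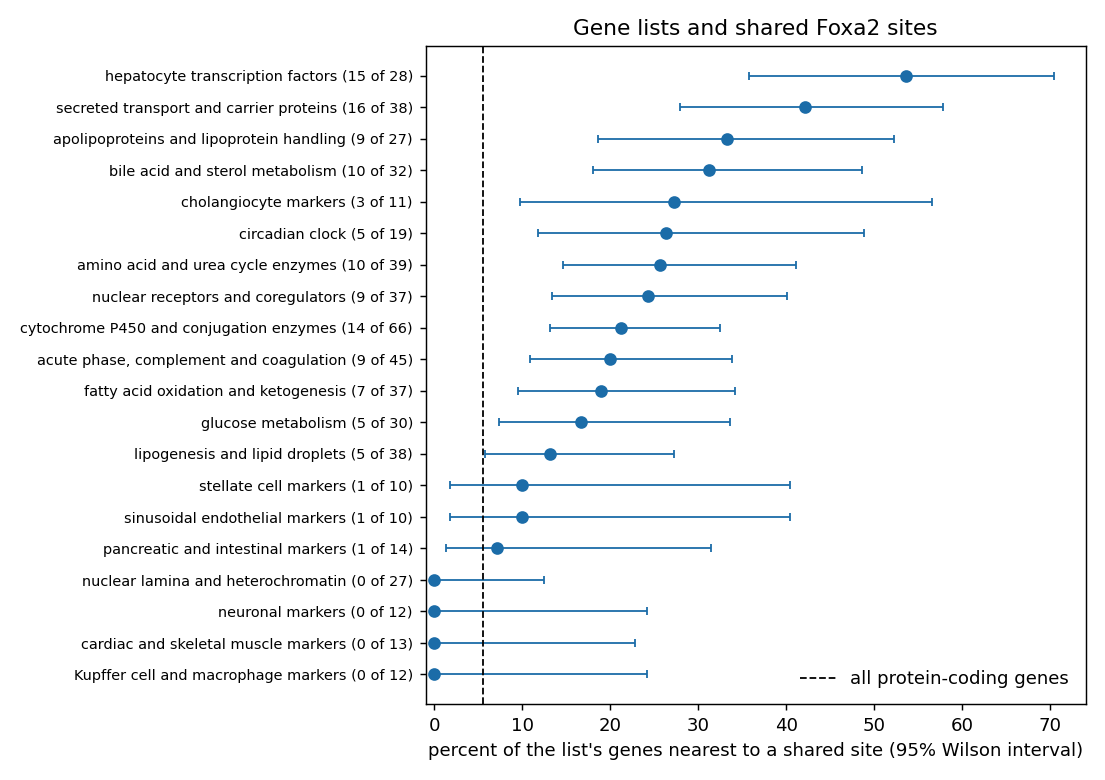
Percent of the genes of each of 20 lists that were the nearest protein-coding gene to a shared Foxa2 site, with 95% Wilson intervals and the number of genes; the dashed line gives all protein-coding genes (5.51%). Hepatocyte transcription factors are at the top with 53.6%, and 4 lists are at 0.

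Among hepatocyte transcription factors 15 of 28 genes (53.6%) were nearest to a shared site, with 21 sites in all. Wild-type-only and mutant-only sites also reached 15 of these 28 genes each, from larger backgrounds. Foxa2 itself had 3. They spanned chr2:148046330-148047336 at the promoter, 0.117 kb downstream of the start site, chr2:148040076-148040832 at 6.62 kb and chr2:147971275-147972064 at 75.3 kb, and none lay in a lamin B1 or H3K9me3 region. Cebpa, a leucine zipper factor of hepatocyte metabolism, had 2 sites, at 8.62 and 24.8 kb downstream, both in lamin B1 at both ages. Onecut1 (HNF6) had sites 60.7 and 333 kb upstream, and Klf9, a glucocorticoid-induced Krüppel-like factor, had 3 at 6.16 to 116 kb.

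Hnf4a had a site in an intron 34.0 kb downstream, at chr2:163540590-163541039. It lay in lamin B1 at both ages and outside H3K9me3. Foxa1 had one 102 kb downstream, in an intron of another gene, assigned to it by distance. Foxa3 was not the nearest gene of any Foxa2 site of the 2 lists.

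Among nuclear receptors and coregulators 9 of 37 genes (24.3%) had a shared site, 16 a wild-type-only one and 21 a mutant-only one. Rxra, the common partner of PPAR, LXR and FXR receptors, had 2, at 51.5 and 77.2 kb upstream, both in old lamin B1. Nr2f2 had 2 at 149 and 158 kb, Nr3c1, the glucocorticoid receptor, 2 in its introns, and Nr1i2, the xenobiotic receptor PXR, 1 in an intron 7.19 kb downstream. Ppargc1a, a coactivator of gluconeogenesis and mitochondrial genes, had 1 shared site 278 kb away beside 1 wild-type-only and 7 mutant-only sites. Ppara had 3 wild-type-only sites, 1 mutant-only site and no shared one. Pparg was the nearest gene of 1 mutant-only site and of no other. The paper shows Foxa2 sites of mutants and old livers in an intron of Pparg, while sites were counted here by the nearest start site.

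Secreted transport and carrier proteins had 16 of 38 genes (42.1%) next to 22 shared sites, against 9 next to wild-type-only and 12 next to mutant-only sites. Ahsg (fetuin-A) had 3 shared sites at 0.567, 4.12 and 13.9 kb, all in old lamin B1. Selenop, the selenium carrier, had 3 at 2.33, 17.4 and 20.6 kb, all outside the 4 lists. Ttr, transthyretin, had a promoter site in lamin B1 at both ages, 0.103 kb downstream of the start, and a site 23.5 kb upstream. Alb had 1 shared site, at chr5:90447538-90448093, 13.1 kb upstream, beside 1 wild-type-only and 4 mutant-only sites. Gc, the vitamin D binding protein, had 2.

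Fgb, the fibrinogen beta chain, had 3 shared sites in 3.20 kb of chr3:83049796-83052996, the nearest 0.109 kb upstream of its start. It belongs to the acute phase, complement and coagulation genes, of which 9 of 45 had a shared site, 8 a wild-type-only one and 18 a mutant-only one. Plg had 2, and Klkb1 and C9 1 each at the promoter. Of apolipoproteins and lipoprotein genes 9 of 27 (33.3%) had a shared site, 5 a wild-type-only one and 7 a mutant-only one. The shared sites of Apoa2 (0.0460 kb), Apof (0.0940 kb), Lcat (0.664 kb) and Lrp1 (0.859 kb) were promoter sites. Apoa1 had no Foxa2 site of either list as its nearest gene, and Apob had 2 wild-type-only and 6 mutant-only sites.

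In bile acid and sterol metabolism 10 of 32 genes (31.2%) had a shared site, 9 a wild-type-only one and 17 a mutant-only one. Cyp7a1, the rate-limiting enzyme of bile acid synthesis, had 2 downstream, one of them at chr4:6239056-6239458, 36.4 kb from the start, and no other Foxa2 site. Abcc2, a canalicular transporter, had 2 in its introns, in old lamin B1 alone. Slc27a5, which conjugates bile acids to coenzyme A, and Insig2, a sterol sensor, had intronic sites at 2.15 and 2.96 kb.

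Of lipogenesis and lipid droplet genes 5 of 38 (13.2%, 5.75 to 27.3) were next to a shared site, against 5.51% of all genes. Wild-type-only sites were next to 12 of the 38 and mutant-only sites next to 11. Shared sites included those of Lpin1 at 7.83 kb, Dgat2 at 12.1 kb, Hsd17b13 at 14.2 kb and Srebf1 at 18.1 kb, all in old lamin B1 alone. Fatty acid oxidation and ketogenesis had 7 of 37 genes (18.9%) next to a shared site, 10 next to a wild-type-only and 11 next to a mutant-only one. Shared sites lay at 2.05 kb from Cpt1a, whose product admits fatty acids to mitochondria, and at 4.84 kb from Ehhadh, 5.22 kb from Acot4 and 11.3 kb from Hadh.

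Of glucose metabolism genes 5 of 30 (16.7%) had a shared site, 12 a wild-type-only one and 16 a mutant-only one. Irs2, the main insulin receptor substrate of liver, had 5, all intergenic and in old lamin B1, from 34.1 to 141 kb on both sides of its start, and both upstream sites also lay in old H3K9me3. Pck1, which encodes the gluconeogenic enzyme PEPCK, had a site of 3938 bp at its promoter, of which 824 bp overlapped a mutant site. G6pc and Igfbp1 were not the nearest gene of any Foxa2 site, and Tat had 2 wild-type-only and 1 mutant-only site.

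Amino acid and urea cycle enzymes had 10 of 39 genes (25.6%) next to 15 shared sites, 13 genes next to wild-type-only and 11 next to mutant-only sites. Gpt2, an alanine aminotransferase, had 3 at 0.252, 3.69 and 15.5 kb, all in old lamin B1 alone. Cbs had 2 and Cps1, the first enzyme of the urea cycle, had 2 at 6.24 and 30.3 kb upstream, outside the 4 lists. Of cytochrome P450 and conjugation genes 14 of 66 (21.2%) had a shared site, 15 a wild-type-only one and 26 a mutant-only one. Ugt2b1, Cyp2a12 (0.0880 kb) and Cyp2c50 (1.07 kb) had shared sites near their starts, and Gsta3 had 2. Genes of these families are alike in sequence, and reads that aligned to several places were not used by the authors, so sites in copied stretches are uncertain.

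Of circadian clock genes 5 of 19 (26.3%, 11.8 to 48.8) had a shared site, 7 a wild-type-only one and 5 a mutant-only one. Those with a shared site included Per1 at its promoter (0.242 kb), Hlf at 2.55 kb, Per2 at 2.65 kb and Nfil3 at 6.12 kb. Of cholangiocyte markers, 3 of 11 (9.75 to 56.6%) had shared sites, among them Cldn3 and Sox9, and 2 each had wild-type-only and mutant-only ones. Cldn3 had 2, at 4.94 and 6.83 kb, and both Sox9 sites were over 300 kb away. Gpr182, a marker of sinusoidal endothelium, and Reln, a marker of stellate cells, had 1 each.

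Shared sites next to a gene of the 11 hepatocyte lists differed from the others in position and state. Their median distance to the start site was 8.80 kb, against 23.1 kb for the 1199 others, and 37.1% lay within 5 kb, 12.7 points more (4.74 to 21.3). Young lamin B1 covered 23.6% of them and 39.9% of the others, a difference of -16.4 points (-23.2 to -8.23). In old liver the shares were 60.7% and 71.5% (-19.4 to -2.63). H3K9me3 covered 7.86% against 17.7% at 3 months (-13.9 to -3.80) and 7.14% against 18.8% at 21 months (-15.6 to -5.73). The core TGTTTAC was in 34.3% and 33.5%. Any forkhead word was in 71.4% and 58.7% (4.27 to 20.1).

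Ccl28, Zfp978 and Irs2 had 5 each. Ghr, the growth hormone receptor, had 4, of which 3 lay in its introns 92.4 to 134 kb downstream and 1 lay 24.7 kb upstream, all outside the 4 lists and each with at least 1 forkhead word. Tenm3 had 4, from 103 to 308 kb, and Vmn1r2 4 at 76.9 to 117 kb. Beside its shared sites Tenm3 had 2 wild-type-only and 12 mutant-only sites, Irs2 had 2 and 4, and Vmn1r2 had 3 and 1. Ghr had 0 and 3, Ccl28 had 0 and 1, and Zfp978 had 0 of either kind. Mtus1, Tle1, a Groucho corepressor, and Abca8b, a transporter, had 3 shared sites each, as did Foxa2, Fgb, Gpt2, Ahsg, Selenop and the predicted gene Gm11168. The site with the most cores had Barhl1 as its nearest gene, with 10 TGTTTAC cores in 744 bp. It lay 34.1 kb downstream of that start site, in an intron of a protein-coding gene that was not looked up.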

How the data were processed

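Foxa2 ChIP-Seq was analysed in livers of 3 wild-type and 3 Zmpste24 KO mice aged 12 weeks, and lamin B1 and H3K9me3 in wild-type livers at 3 and 21 months (2 each). The authors mapped reads with BWA (mm10), discarded PCR copies (Picard) and reads mapping to more than 1 place, and merged replicates. Because the mutant Foxa2 data were deeper, they were thinned to wild-type depth before sites were called against input, with PeakSeq per the methods. Lamin B1 domains were called with Epic, an implementation of SICER, in 10 kb windows. For H3K9me3 the methods name no caller. The submitters' processing notes name SICER for all samples, Foxa2 included, so the caller of the Foxa2 lists is given differently by the 2 sources. The 6 deposited lists hold positions without a score, so depth per site is unknown and no stricter threshold could be set. H3K9me2 was not analysed here.

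Overlaps of at least 1 bp were computed on chromosomes 1 to 19 (1-based coordinates). Sequence came from GRCm38.p6 (RefSeq) and protein-coding start sites from GENCODE vM21, with a limit of 10000 kb for the nearest gene. State was read at the middle of the overlap, or of the site where there was none. Shares have 95% Wilson intervals and differences Newcombe intervals (counting error only). No p-value is given, because the merged lists have no replicates. All 250 planted overlaps, 250 planted words and 100 planted start sites were recovered in simulated data. Python 3.11.15, numpy 2.4.6, scipy 1.17.1 and matplotlib 3.10.9 were used.

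The sites, the gene lists and the words were chosen with earlier results of these data known. Named genes are, for each list, up to 4 with the most shared sites, the 15 genes with the most shared sites (ties by distance), 20 set liver genes, the sites at the ends of width and threshold, and the nearest listed gene of each frequent state. Sequences were shown for set genes with a site within 50 kb, Ttr left out. Some results that the rule would name are not reported here.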

Additional observations from a re-analysis of the deposited data

How the results depend on the processing

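Of 58 alternative values for 9 results, 50 stayed within the 95% interval of the reported share, or within 1.5 times the reported count. The number of shared sites fell from 1339 to 859 with site middles within 200 bp. At a reciprocal overlap of at least 50% it fell to 906, which was within the limit for counts. The number of nearest genes fell from 1145 to 819 with those sites and to 833 with a limit of 50 kb, also within it. The share with a forkhead core was 40.9% in the overlapped stretch as it is, 43.9% in the whole wild-type site and 25% in 150 bp. It was 60.0% with any of 4 words and 26.1% with the window at the middle of the wild-type site, an alternative chosen after seeing the data. In wild-type-only sites the shares were 21.7% in the whole site, 5.68% in 150 bp and 26.5% with 4 words. The last 2 used windows centred on the site, and the shared values of 25% and 60.0% used windows centred on the overlap. They are therefore not compared. With the window on the called site for both sets, the difference with 4 words was 23.5 points (20.5 to 26.6). Sites within 5 kb of a start rose from 25.8% to 38.2% with all annotated genes (30.8% of wild-type-only sites). Lamin B1 and H3K9me3 shares moved in none of their alternatives, which were a 50% reciprocal overlap (906 sites), leaving out the widest 10%, any overlap, and regions of at least 50 kb. Likewise chosen after seeing the data, sites in 5 groups of neighbours, sites of at least 3 kb and sites over 50% repeat-masked were also left out. The share of wild-type sites in all 4 lists that were shared then went from 36.4% to 29.0% without the groups, and no other result moved. No paired analysis was possible because the merged lists carry no replicate numbers, and for the same reason no replicate could be left out. Depth per site is unknown.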

Other observations

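Some shared sites were wide or lay in groups. With gaps of up to 12.5 kb, 195 of the shared sites (14.6%) fell into groups of 2 or more, and 5 groups held at least 4 sites, 32 in all. On chromosome 1, from 88211375 to 88310680, 7 shared sites covered 92088 bp of 99.3 kb, next to Ugt1a1, Mroh2a, Hjurp and Trpm8. They included the widest shared site, of 33618 bp near Hjurp, whose overlap with the mutant site it was paired with was 6135 bp. All 7 lay in old lamin B1 and in no H3K9me3 region, and 1 of them had a forkhead word in its 300 bp window. No wild-type-only or mutant-only site lay in that stretch.

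On chromosome 9, from 3000000 to 3038401, 12 shared sites lay in 38.4 kb next to predicted genes such as Gm10722 and Gm11168. Their median repeat-masked share was 95.7%, all 12 were in lamin B1 and H3K9me3 at both ages, and none had a forkhead word in its window. On chromosome 2, from 98662077 to 98667458, 4 sites next to Gm10801 and Gm10800 had a median repeat-masked share of 51.5% and lay in the young lists of lamin B1 and H3K9me3 but in neither old one. One of them was row 1 of the wild-type list.

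On chromosome 4, from 147402943 to 147434756, 4 sites next to Zfp978 and Zfp982 lay in all 4 lists. On chromosome 13, from 119597688 to 119617592, 5 sites upstream of Ccl28, a chemokine of mucosal epithelia, did so too, and 2 of them had a forkhead word. The 24 shared sites of at least 3 kb (1.79% of shared, 0.448% of wild-type-only sites) included 2 upstream of Mat1a, which makes S-adenosylmethionine, outside the 4 lists. Mappability of these stretches was not tested.

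Groups of 3 lay elsewhere. At Vmn1r2, a vomeronasal receptor gene, 3 sites in 20 kb of chromosome 4 lay in all 4 lists. Others were found at Fgb (3.20 kb), Ahsg (15.6 kb), Mtus1 (18.5 kb) and Il1r1 (20.1 kb), and at Junb, with Rnaseh2a and Hook2 (16.0 kb).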
